A study of Mus musculus with 18 samples.

Results

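The 32 GABA and glycine signalling genes of the mouse retina were taken by symbol from 35006 gene names in the count files, and all 32 were found. They comprise 11 GABA-A receptor subunits, 3 GABA-C receptor subunits, 2 GABA-B subunits, 5 glycine receptor subunits, 3 genes of synthesis or vesicular loading, 4 plasma membrane transporters, 2 chloride cotransporters, the scaffold Gphn and the breakdown enzyme Abat. Of these, 30 were among the 16183 genes tested. Gabra6 and Gabre were not, with 0 to 2 and 1 to 5 counts per library.

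GABA and glycine are the main inhibitory transmitters of the retina. Amacrine cells release one or the other, and horizontal cells use GABA. GABA-A, GABA-C and glycine receptors are chloride channels, so their effect depends on the chloride gradient set by the cotransporters, whereas GABA-B receptors act through G proteins. GABA-C subunits are known above all from bipolar cell terminals, where they limit glutamate release.

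Poly(A) RNA of whole retinas from male mice was sequenced in 18 libraries. WT mice were C57BL/6J, and Akita mice (C57BL/6-Ins2Akita/J) carry a mutated Ins2 insulin gene and are diabetic. NACET, the ethyl ester of N-acetyl-L-cysteine, was dissolved in the drinking water (0.33 mg/mL, a daily dose of 50 mg/kg) from week 4 of life until week 24, and the other mice received water alone. There were 3 WT, 6 WT + NACET, 4 Akita and 5 Akita + NACET libraries, so that Akita stands for a single mutation in males and the whole retina for a mixture of cell types. In such bulk samples, fewer cells of a type and less RNA per cell cannot be told apart.

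Counts in genes ranged from 11495596 to 17814479 per library. Levels are given as CPM, read counts scaled by the normalised library size, and genes were called at an adjusted p of at most 0.05 in the edgeR test over all genes tested. Several features of the libraries touch the results below. The share of reads outside annotated exons was 14.9% to 17.1% in WT, 9.55% to 16.5% in WT + NACET, 9.67% to 13.3% in Akita and 14.3% to 19.8% in Akita + NACET. It was lower in Akita than in Akita + NACET in every library (exact permutation p = 0.0159, two-sided, adjusted p = 0.0857 over 6 pairs of groups). Akita replicate 4 stood apart in the genes described here, with a mean centred log2 level of −0.59 over the members, against −0.16 to −0.14 in the other Akita libraries. It stood apart in cell type markers too, with sums of 630 CPM for ganglion cells (1319 to 1527 in the other Akita libraries), 1748 for Mueller glia (2831 to 3462), 828 for amacrine cells (1286 to 1550) and 62919 for rods (45508 to 50820). The WT + NACET libraries stood apart from all others in Wdfy1 (95.2 ± 5.30 CPM, SD, n = 6, against group means of 14.2 to 16.0) and Acp1 (2.48 ± 0.451 CPM against 32.7 to 36.7), and the reason for this was not tested.

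In WT retinas the members spanned a wide range of levels per kb of exon. Glrb, the beta subunit that anchors glycine receptors to the scaffold, was highest at 51.6 ± 11.8 CPM per kb (SD, n = 3), followed by Slc12a5, the neuronal chloride exporter, at 44.6 ± 8.09, and Gad1, which makes GABA from glutamate, at 32.1 ± 5.59. Glrb and Slc12a5, and likewise Slc12a5 and Gad1, differed by less than the sum of their SDs. Gabrr2 (22.4 ± 3.48 CPM per kb), Gphn (19.0 ± 1.34) and Gabrr1 (15.1 ± 2.71) came next, so that both of these GABA-C subunits had higher mean levels than every GABA-A subunit analysed here, of which Gabra3 was the highest at 10.9 ± 1.50. At the low end were Gabrg3 (0.749 ± 0.145 CPM per kb), Glra3 (0.741 ± 0.133) and Gabrq (0.181 ± 0.0766), and the first of these could not be ordered against the second within their spread.

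**Figure D1:**
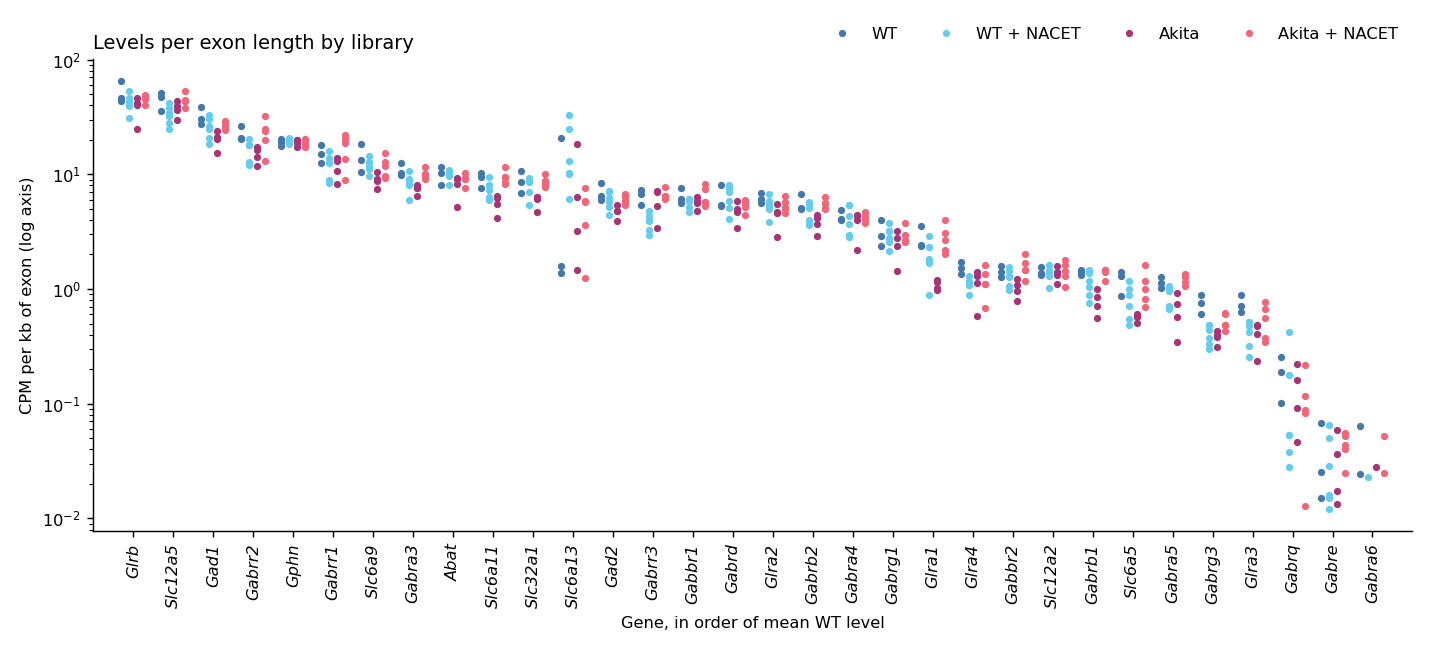
Level of each of the 32 genes in CPM per kb of exon (log axis), 1 point per library, coloured by group and ordered by the WT mean; libraries with a count of 0 are not drawn. Glrb, Slc12a5 and Gad1 lead in WT, Slc6a13 spreads most widely between libraries among the well measured genes, and Gabre and Gabra6 lie at the lower end.

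Within each family the share of a gene was taken from levels per kb of exon. Glra2 held 55.0% ± 4.39 (SD, n = 3) of the summed glycine receptor alpha subunits in WT and 62.4% ± 3.83 (n = 4) in Akita, while Glra1 held 24.8% ± 5.99 and 16.5% ± 5.72. Gad1 held 82.3% ± 0.163 of the 2 glutamate decarboxylases in WT and 80.9% ± 0.926 in Akita. Gabrr2 held 51.0% ± 2.50 of the GABA-C subunits in WT and 46.7% ± 2.56 in Akita. These shares were not tested between groups.

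The first comparison asked how the diabetic genotype differed from WT under water. In Akita, 11 of the 30 tested members were called lower and 0 higher, where 3.68% of all tested genes were called lower and 3.96% higher. In DESeq2 the count was 12, beside 881 of 27409 genes called lower. At an unadjusted p under 0.05 it was 17, where 4377 of the 16183 tested genes met that threshold in either direction. The log2 fold change was below 0 for 29 of the 30 members, with a median of −0.49 against −0.01 over all tested genes. The genes called lower covered synthesis and vesicular loading (3 of 3), plasma membrane transporters (3 of 4), GABA-A subunits (4 of 9 tested) and glycine receptor subunits (1 of 5), and no GABA-C, GABA-B, scaffold, breakdown or cotransporter gene was called.

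Synthesis and loading were lower in Akita in each of their genes. Gad1 measured 211, 231 and 293 CPM in WT, and 117, 155, 163 and 182 CPM in Akita. All WT libraries lay above all Akita libraries, and the log2 fold change was −0.67 ± 0.17 (SE, adjusted p = 0.0272). Gad2, the decarboxylase isoform attached to synaptic vesicles, measured 35.1, 37.8 and 49.1 CPM in WT against 23.0, 27.8, 28.3 and 31.96 in Akita (log2 fold change −0.55 ± 0.15, adjusted p = 0.0360). Slc32a1, the vesicular carrier that loads both transmitters, measured 19.4, 24.2 and 29.7 CPM in WT against 13.2, 17.1, 17.7 and 17.7 in Akita (−0.57 ± 0.17, adjusted p = 0.0422). Neither gene overlapped between the groups. The share of all tested genes without overlap was not counted, here or below, so such separation only describes the values.

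The carriers that clear the transmitters followed the same direction. Slc6a11, a GABA transporter (GAT3), measured 31.1, 38.8 and 41.6 CPM in WT, and 17.0, 22.6, 25.2 and 26.5 CPM in Akita. The groups did not overlap, with a log2 fold change of −0.70 ± 0.16 (adjusted p = 0.0212). Slc6a5, the neuronal glycine transporter GlyT2, measured 6.14, 9.11 and 9.91 CPM in WT against 3.59, 4.02, 4.14 and 4.28 in Akita (−1.06 ± 0.29, adjusted p = 0.0316). Slc6a9, the glycine transporter GlyT1, measured 54.2, 68.8 and 95.0 CPM in WT and 38.6, 45.0, 46.3 and 54.0 CPM in Akita. Its groups were separated by a narrow margin (−0.66 ± 0.18, adjusted p = 0.0365), and because reads were counted without strand its value is uncertain: 1258 exonic bases overlap Ccdc24 on the opposite strand, itself at a mean of 58.2 CPM.

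Among receptor subunits, Glra1 showed the largest decrease of the 30 members. It encodes the alpha 1 subunit of the glycine receptor and measured 5.72, 5.89 and 8.55 CPM in WT, against 2.39, 2.45, 2.78 and 2.90 CPM in Akita. The 4 Akita libraries lay close together and well under WT, at 0.393 times the WT level (log2 fold change −1.35 ± 0.29, adjusted p = 0.0165). Gabrg3, a gamma subunit, had the smallest p of the members, with 7.17, 9.03 and 10.6 CPM in WT and 3.73, 4.52, 4.77 and 5.12 CPM in Akita (−0.97 ± 0.20, adjusted p = 0.0155). These groups were also apart.

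The other GABA-A subunits called were Gabrb1, Gabra3 and Gabrb2. The beta subunit Gabrb1 measured 4.09, 4.31 and 4.56 CPM in WT against 1.74, 2.17, 2.64 and 3.07 in Akita (−0.83 ± 0.22, adjusted p = 0.0311). Gabra3, an alpha subunit, measured 38.9, 39.9 and 49.5 CPM in WT and 25.5, 29.8, 30.1 and 31.4 CPM in Akita (−0.55 ± 0.14, adjusted p = 0.0274). Gabrb2 measured 49.4, 50.0 and 66.3 CPM in WT and 28.8, 36.8, 41.2 and 43.4 CPM in Akita (−0.55 ± 0.17, adjusted p = 0.0458). None of the 3 overlapped between the groups, and Akita replicate 4 was the lowest library for each of them.

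Members that did not pass the test in Akita vs WT had log2 fold changes from −0.88 for Glra3 to 0.00 for Gphn. Gphn, which encodes gephyrin, the scaffold of inhibitory synapses, was level across the study, at 59.9 to 68.9 CPM in WT, 58.8 to 67.9 in Akita, 58.5 to 69.3 in Akita + NACET and 62.1 to 69.7 in WT + NACET. Slc12a2, the chloride importer NKCC1, lay at 8.55 to 10.1 CPM in WT and 7.22 to 10.4 CPM in Akita. Abat, the GABA transaminase, spanned 62.9 to 90.0 CPM in WT and 40.4 to 71.3 CPM in Akita, with overlapping groups.

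The GABA-C and glycine receptor subunits that missed the threshold in Akita vs WT all had negative log2 fold changes there. Gabrr2 measured 42.5, 43.4 and 55.6 CPM in WT against 24.9, 29.6, 34.2 and 36.2 in Akita, without overlap (log2 fold change −0.59 ± 0.24, adjusted p = 0.116). Gabrr1 lay at 28.6 to 40.9 CPM in WT and 19.0 to 31.9 in Akita, and Gabrr3 at 9.05 to 12.2 and 5.78 to 12.1, both with overlapping groups. Glra3 measured 2.89 to 4.09 CPM in WT and 1.08 to 2.24 in Akita, and Glra2 17.6 to 21.7 and 8.87 to 17.2, and neither overlapped. Glra4 (2.72 to 3.45 CPM in WT, 1.16 to 2.83 in Akita) and Glrb (145 to 217 and 83.1 to 154) did overlap.

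Of the remaining GABA receptor subunits, Gabbr1, which binds GABA in the GABA-B receptor, lay at 43.5 to 59.0 CPM in WT, 37.1 to 49.7 in Akita and 40.8 to 63.7 in Akita + NACET. Gabra4 spanned 16.6 to 20.0, 9.03 to 18.3 and 15.4 to 19.2 CPM in the same groups, and Gabrg1 11.3 to 19.0, 6.88 to 15.1 and 12.2 to 17.8. Gabrd, a subunit known from extrasynaptic receptors, lay at 15.2 to 23.2, 9.78 to 16.9 and 12.8 to 17.3 CPM. The ranges of each of these overlapped between all 3 groups. Gabrq was near the floor of detection, at 0.0689 to 2.27 CPM over all 18 libraries, and its SE of 0.77 in Akita vs WT leaves its direction undetermined at this depth.

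**Figure D2:**
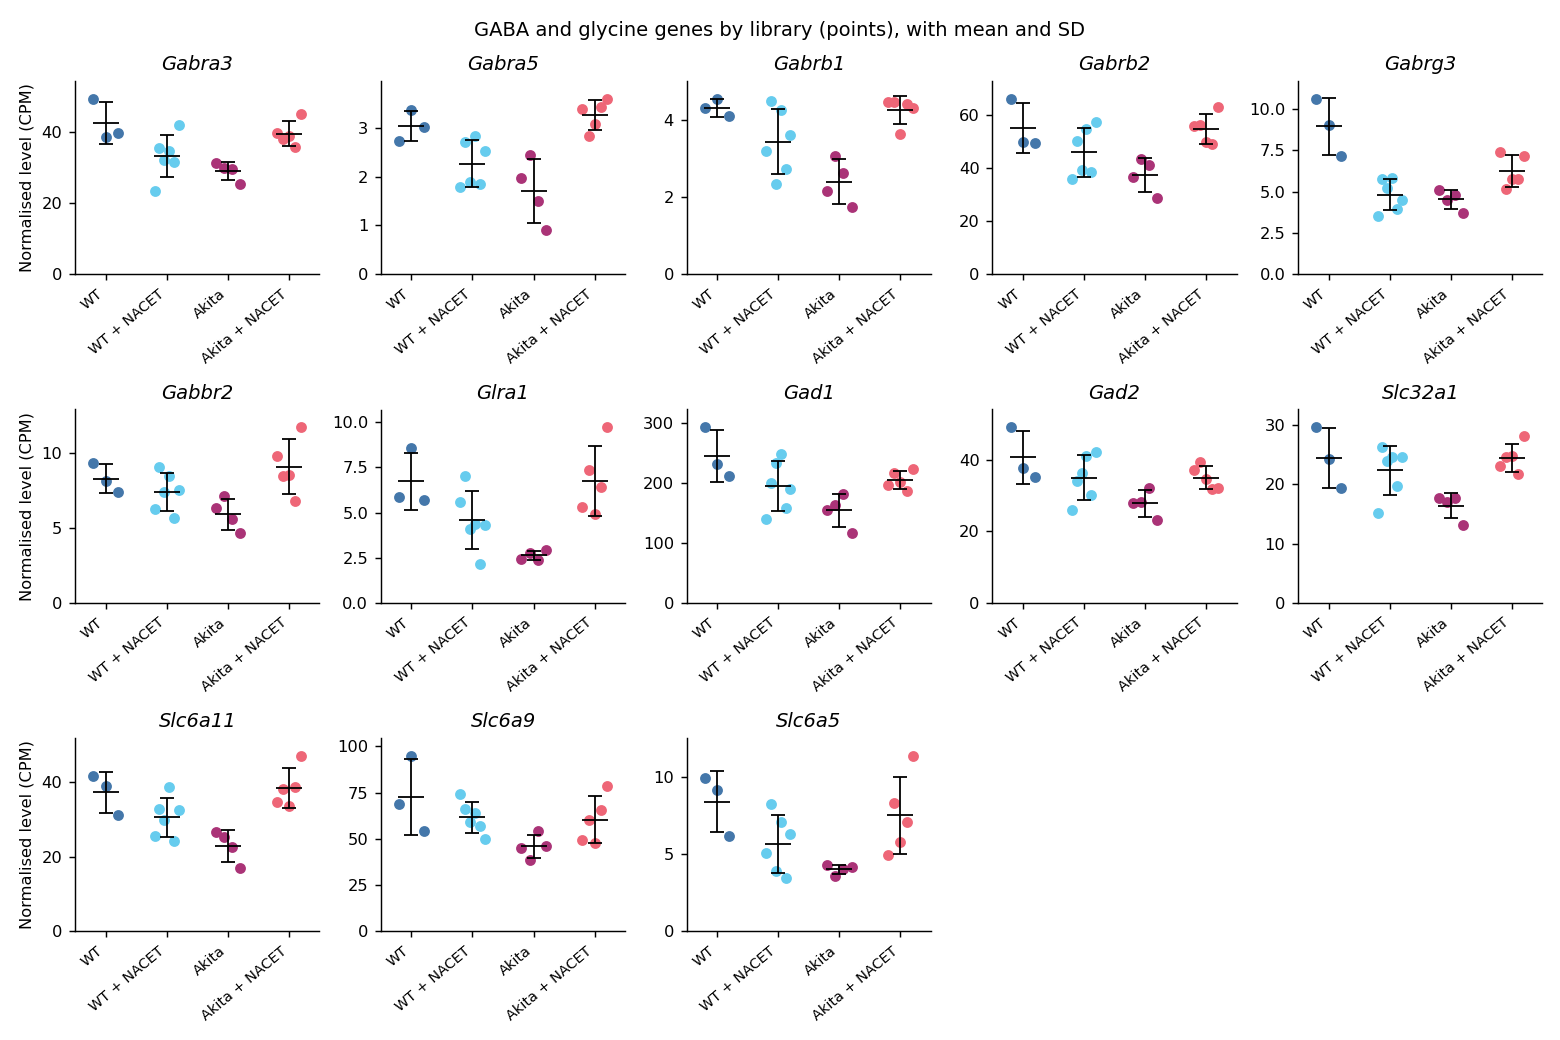
CPM of the 13 members called in Akita vs WT or in Akita + NACET vs Akita, 1 panel per gene with its own axis from 0; points are libraries, and the bars give the mean and SD of each group. In most panels the Akita libraries sit lowest, and Glra1 shows 4 Akita libraries between 2.39 and 2.90 CPM under 5 Akita + NACET libraries between 4.91 and 9.73.

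The second comparison set the treated diabetic retina against the untreated one. In Akita + NACET against Akita, 9 of the 30 members were called higher and 0 lower, where 4.51% of all tested genes were called higher and 5.14% lower. DESeq2 called 10. The log2 fold change was above 0 for 27 of the 30, with a median of 0.36 against 0.00 over all tested genes. Of the 9, 7 had also been called lower in Akita vs WT: Gabra3, Gabrb1, Gabrb2, Glra1, Slc32a1, Slc6a5 and Slc6a11. Both comparisons share the same 4 Akita libraries, so a low value there enters both with opposite sign.

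Glra1 had the largest difference, with 4.91, 5.31, 6.40, 7.37 and 9.73 CPM in Akita + NACET. Every one of these lay above the highest Akita library at 2.90 CPM, and the log2 fold change was 1.36 ± 0.27 (SE, adjusted p = 0.0161), a 2.56-fold higher level. Slc6a11 reached 33.5, 34.6, 38.1, 38.7 and 47.0 CPM, again above all Akita libraries (0.75 ± 0.15, adjusted p = 0.0161). Gabra5, an alpha subunit known for extrasynaptic receptors, measured 0.912, 1.51, 1.96 and 2.43 CPM in Akita and 2.83, 3.06, 3.38, 3.42 and 3.59 CPM in Akita + NACET (0.91 ± 0.23, adjusted p = 0.0239). These groups did not overlap, and the gene had missed the threshold in Akita vs WT (−0.81 ± 0.26, adjusted p = 0.0573).

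Gabrb1 measured 3.64, 4.31, 4.41, 4.48 and 4.48 CPM in Akita + NACET (log2 fold change 0.81 ± 0.20, adjusted p = 0.0217). Slc6a5 measured 4.96, 5.74, 7.08, 8.31 and 11.4 CPM (0.90 ± 0.26, adjusted p = 0.0354). Slc32a1 measured 21.7, 23.0, 24.6, 24.7 and 28.1 CPM (0.57 ± 0.15, adjusted p = 0.0269). All libraries of these 3 genes lay above the Akita libraries given before. Gabrb2 reached 49.0, 49.9, 56.0, 56.2 and 63.0 CPM (0.54 ± 0.15, adjusted p = 0.0312), and Gabra3 reached 35.8, 38.1, 39.1, 39.8 and 45.3 CPM (0.44 ± 0.13, adjusted p = 0.0367), both without overlap.

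Gabbr2, the GABA-B subunit that couples to the G protein, was the exception in that its groups overlapped. It measured 4.64, 5.59, 6.31 and 7.12 CPM in Akita and 6.84, 8.49, 8.55, 9.85 and 11.8 CPM in Akita + NACET (0.61 ± 0.17, adjusted p = 0.0336). The other members called lower in Akita vs WT did not pass here. Gad1 measured 186, 197, 201, 216 and 223 CPM in Akita + NACET, above every Akita library (0.41 ± 0.15, adjusted p = 0.0863). Gad2 (0.33 ± 0.14, adjusted p = 0.114), Slc6a9 (0.39 ± 0.16, adjusted p = 0.122) and Gabrg3 (0.46 ± 0.18, adjusted p = 0.0925) had positive values that also missed the threshold.

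Both sets of calls depended on single libraries. Without Akita replicate 4, 2 members (Glra1 and Gabrg3) were called in Akita vs WT and 0 in Akita + NACET vs Akita. Over all genes the same omission left 234 of 1237 and 1 of 1562 calls. At an unadjusted p under 0.05 there were 14 and 12 members without this library. With all libraries, 4377 and 4700 of the 16183 tested genes met that threshold in these comparisons. Counts over all genes at this unadjusted threshold were not made for the other fits. Without WT replicate 1 or WT replicate 2, no member and no gene was called in Akita vs WT, with 14 and 17 members at an unadjusted p under 0.05. Without Akita + NACET replicate 5 or replicate 2, 2 and 3 members were called in Akita + NACET vs Akita. Of all genes tested, 0.626% and 2.64% were called in these fits, in either direction. Without Akita replicates 1 and 3, 4 and 5 members were called there, beside 4.995% and 6.15% of all genes tested. Without Akita replicate 1, 5 members were called in Akita vs WT, beside 5.37% of all genes tested.

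The share of reads outside exons was lower in every Akita library than in any WT or Akita + NACET library. With this share as a term in the edgeR fit, 0 members and 0 genes were called in either comparison, with 10 and 8 members at an unadjusted p under 0.05. The fold changes moved less than the calls: the members' median was −0.44 in Akita vs WT, with 26 of 30 below 0, and 0.28 in Akita + NACET vs Akita, with 24 of 30 above 0. Low shares also occurred in WT + NACET replicates 3, 5 and 6, at 10.4%, 11.3% and 9.55%, the last being the lowest of the 18 libraries. The mean centred log2 levels of these 3 over the members were −0.13, −0.21 and 0.06. Akita replicates 1 to 4 had −0.16, −0.16, −0.14 and −0.59. The part of the share in these levels was not tested. A fit of only the 2 groups compared leaves out the libraries of both other groups. In it, 3 members were called in Akita vs WT and 8 in Akita + NACET vs Akita. Of all genes tested, 0.965% and 4.56% were called in these fits, in either direction.

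**Figure D3:**
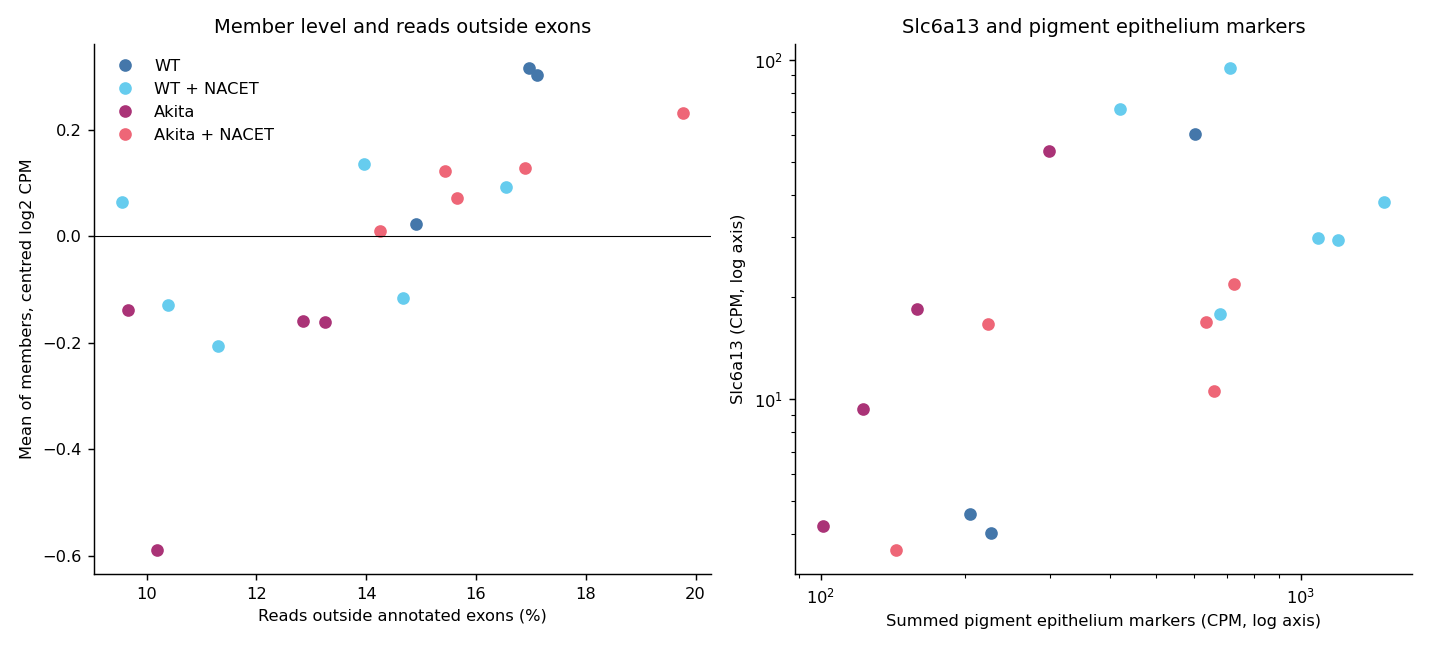
Left, mean centred log2 CPM of the members per library against the percentage of reads outside annotated exons; the 4 Akita libraries lie at 9.67% to 13.3% and under 0, and replicate 4 is lowest at −0.59. Right, Slc6a13 in CPM against the summed CPM of 7 pigment epithelium markers per library, both on log axes; each point is a library, coloured by group as in the left panel.

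Markers of the retinal cell types shifted beside these genes. Of the 10 amacrine markers analysed, 5 were called lower in Akita vs WT (Ebf3, Vip, Pax6, Slc17a8 and Neurod2), with a median log2 fold change of −0.65, and 1, Neurod2, was called higher in Akita + NACET vs Akita. Their summed level overlapped between groups, at 1375 to 2063 CPM in WT, 828 to 1550 in Akita and 1084 to 1628 in Akita + NACET. Rod markers went the other way: 2 of 8 were called higher in Akita vs WT and 6 of 8 lower in Akita + NACET vs Akita, with sums of 34936 to 47235 CPM in WT, 45508 to 62919 in Akita and 27974 to 40927 in Akita + NACET. Of the horizontal (6), bipolar (10) and ganglion cell (9) markers, 0 were called in either comparison, but most had the sign of the members. Ganglion cell markers were below 0 for 9 of 9 in Akita vs WT (median −0.34) and above 0 for 9 of 9 in Akita + NACET vs Akita (0.20), bipolar markers for 8 and 9 of 10 (−0.23 and 0.18), and horizontal cell markers for 5 and 5 of 6 (−0.23 and 0.27). Of the 8 Mueller glia markers 1, Aqp4, was called lower in Akita vs WT, where 8 of 8 were below 0 (median −0.29). In Akita + NACET vs Akita 0 of them were called, with 4 above 0 and 4 below (median 0.00). Of 7 pigment epithelium markers 0 were called in either, with medians larger than those of the members: −1.31 in Akita vs WT (6 of 7 below 0) and 1.69 in Akita + NACET vs Akita (7 of 7 above 0, 5 at an unadjusted p under 0.05). Of 5 brain tissue markers tested, 0 were called, with medians of −0.28 and 0.38. The part of these shifts in the result was not tested.

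**Figure D4:**
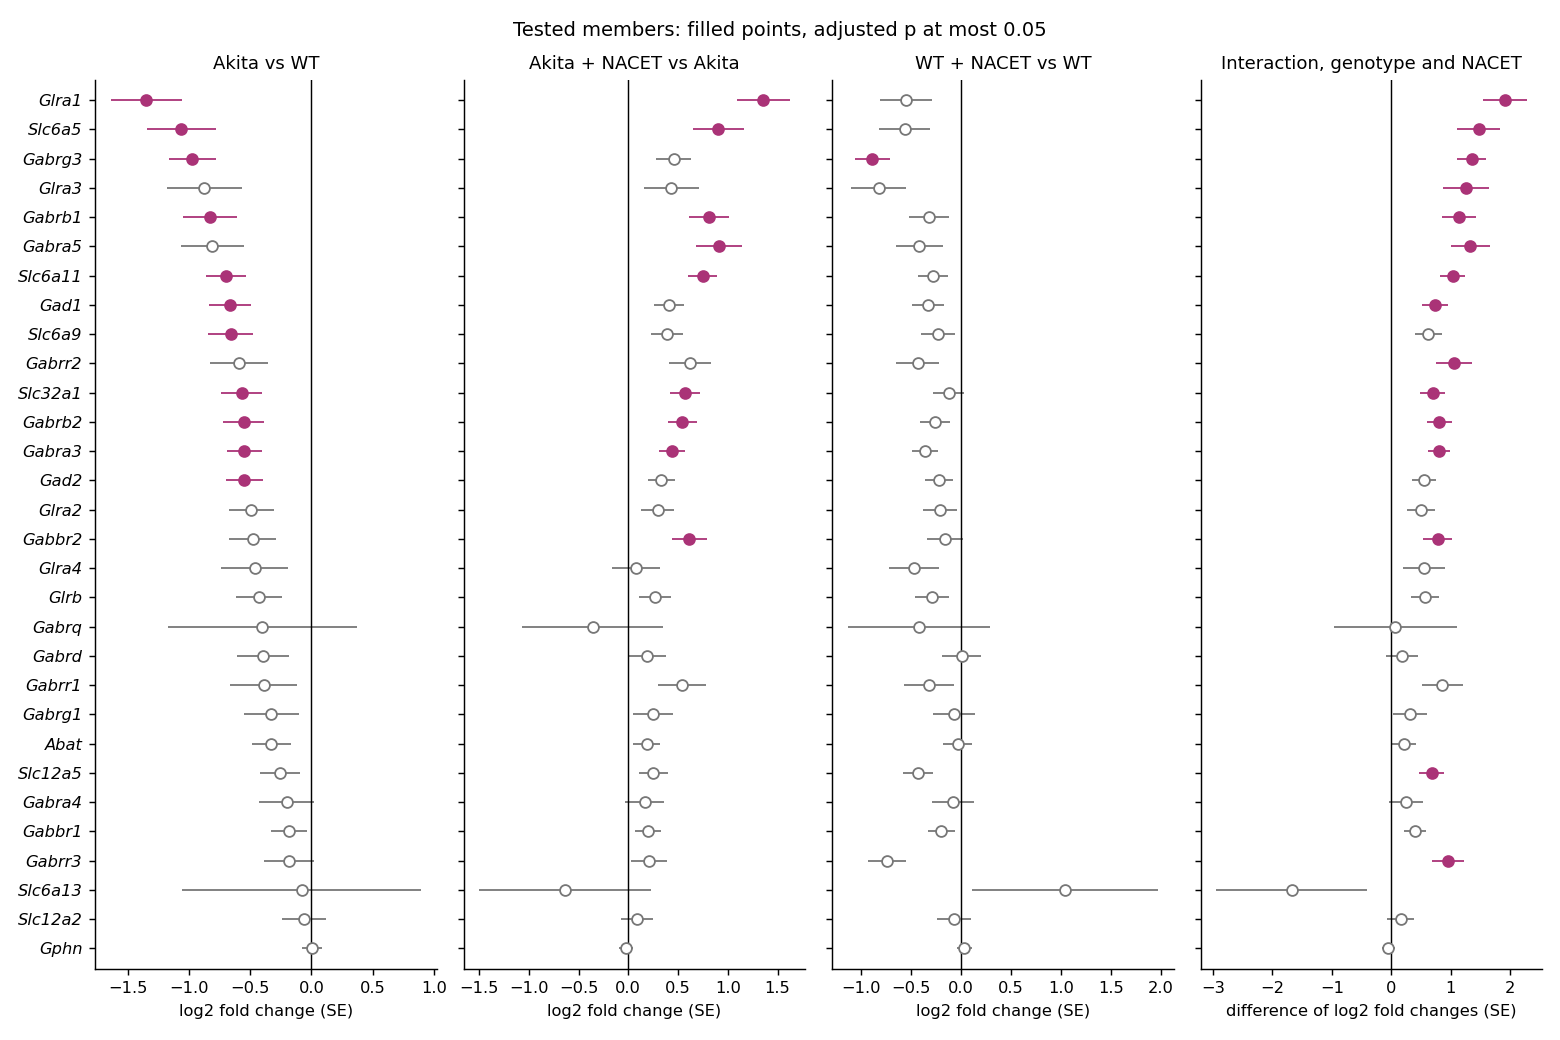
Log2 fold change with SE of the 30 tested members in 3 comparisons, and their interaction, in the order of Akita vs WT; filled points had an adjusted p of at most 0.05. All filled points lie under 0 in Akita vs WT and WT + NACET vs WT, and above 0 in Akita + NACET vs Akita and in the interaction.

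The third comparison set WT + NACET against WT. The WT + NACET libraries also stood apart from all others in Wdfy1 and Acp1. NACET thus cannot be told apart here from another difference of that group. This comparison had 1 member called lower and 0 higher, against 0.624% of all tested genes called lower and 0.859% higher. The called gene was Gabrg3, at 3.56, 4.87 and 5.85 CPM (lowest, median and highest of 6) in WT + NACET. All 6 were under the lowest WT library at 7.17 CPM (log2 fold change −0.89 ± 0.18, adjusted p = 0.0131). The log2 fold change was below 0 for 27 of the 30 members, with a median of −0.29. An unadjusted p under 0.05 was found for 8 members and for 3162 of the 16183 tested genes. Gabrr3 was among these members (−0.74 ± 0.19, adjusted p = 0.0516). Without WT replicate 1 or replicate 2, 0 members were called, with 5 at an unadjusted p under 0.05 in each case. Of all genes tested, 0.437% and 0.469% were called in these fits, in either direction.

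Akita + NACET against WT asked how far the treated diabetic retina stood from the untreated normal one. No member was called by edgeR or DESeq2, and of all tested genes 0.00618% were called lower. An unadjusted p under 0.05 was found for 1 member (Gabrg3) and for 750 of the 16183 tested genes. The lowest adjusted p of the members was 0.9996, and Gabrg3 had a log2 fold change of −0.51 ± 0.18. The members' values ran from −0.76 to 0.14, with a median of −0.06. A missed threshold does not show that these groups were alike, and the SE of 0.18 for Gabrg3 shows the resolution of the comparison.

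Between the NACET groups, 2 members were called higher in Akita + NACET than in WT + NACET and 0 lower, where 6.01% of all tested genes were called higher and 7.26% lower. Gabrr3, a GABA-C subunit, measured 10.3, 10.7, 10.8, 10.8 and 13.0 CPM in Akita + NACET against 5.01, 6.64 and 7.98 CPM (lowest, median and highest) in WT + NACET. These groups did not overlap (log2 fold change 0.77 ± 0.16, adjusted p = 0.00598). Slc12a5, the exporter KCC2, measured 269, 313, 314, 318 and 379 CPM in Akita + NACET against 180, 240 and 300 CPM in WT + NACET, with overlapping groups (0.42 ± 0.13, adjusted p = 0.0389). Slc12a5 lost its call when any 1 of 7 of these 11 libraries was left out, whereas Gabrr3 remained called without each library in turn.

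The interaction of genotype with NACET measured how much the Akita + NACET difference from Akita exceeded the WT + NACET difference from WT. It was called for 15 of the 30 members, all positive, against 10.1% of all tested genes called positive and 10.2% negative. The largest value belonged to Glra1 (1.91 ± 0.37 on the log2 scale, adjusted p = 0.00314), whose WT + NACET libraries measured 2.14, 4.33 and 7.003 CPM (lowest, median and highest of 6). Gabrg3 had the smallest p (1.35 ± 0.25, adjusted p = 0.00267). Slc6a5 (1.47), Gabra5 (1.33), Gabrb1 (1.14), Slc6a11 (1.03), Gabrb2 (0.81) and Gabra3 (0.80) followed among the 8 with the smallest p, with WT + NACET medians of 5.65, 2.21, 3.40, 31.1, 44.7 and 33.5 CPM. These WT + NACET values overlapped those of WT for each of the 6.

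The other interactions called were Glra3 (1.26), Gabrr2 (1.06), Gabrr3 (0.95), Gabbr2 (0.78), Gad1 (0.74), Slc32a1 (0.70) and Slc12a5 (0.68). Glra3, Gabrr2, Gabrr3 and Slc12a5 were called neither in Akita vs WT nor in Akita + NACET vs Akita. Their differences from the untreated group were negative in WT + NACET and positive in Akita + NACET, as for all 15 members called in the interaction. For Gabrr2 these were −0.44 ± 0.22 and 0.62 ± 0.21. The interaction has the WT + NACET libraries as 1 of its 4 groups, and these stood apart in Wdfy1 and Acp1. NACET in WT mice thus cannot be told apart here from another difference of that group. When the share outside exons entered the fit, 0 members and 0.105% of all genes tested were called. In that fit 3 members had an unadjusted p under 0.05, and the members' median was 0.46 in place of 0.69. Without WT replicate 1 it was called for 9 and without WT replicate 2 for 10.

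Slc6a13, the GABA transporter GAT2, behaved unlike the others. It measured 4.03, 4.60 and 60.6 CPM in WT, 4.23, 9.38, 18.4 and 53.8 in Akita, 3.59, 10.5, 16.6, 16.9 and 21.8 in Akita + NACET, and 17.8, 34.0 and 94.5 (lowest, median and highest) in WT + NACET. Libraries of 1 group differed more than the groups did, and no comparison called it. The summed level of 7 pigment epithelium markers also varied, from 204 to 601 CPM in WT, 101 to 298 in Akita, 143 to 727 in Akita + NACET and 420 to 1492 in WT + NACET. The WT library high in Slc6a13 was also the one high in these markers, as was the Akita library at 53.8 CPM, and the part of this tissue in the values was not tested.

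Genes that work beside the members were counted in 5 lists, of which 42 of 44 genes were tested. In Akita vs WT, 3 were called lower and 1 higher, with a median log2 fold change of −0.10, where 7.64% of all tested genes were called in either direction. Aldh5a1, which removes the product of GABA breakdown, measured 16.6 ± 2.30 CPM in WT (SD, n = 3) and 10.7 ± 1.06 in Akita (n = 4), a log2 fold change of −0.63 ± 0.12 (adjusted p = 0.0155). Slc38a1, a neuronal glutamine transporter, fell from 134 ± 8.68 to 92.9 ± 6.78 CPM (−0.53 ± 0.12, adjusted p = 0.0214). Zdhhc3, a palmitoyltransferase of gamma subunits, was higher (0.45 ± 0.11, adjusted p = 0.0202).

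In Akita + NACET vs Akita, 5 of the 42 were called higher and 1 lower, where 9.65% of all tested genes were called in either direction. Slc38a1 (0.49 ± 0.11, adjusted p = 0.0204), Wnk2, a kinase that controls chloride cotransporters (0.74 ± 0.19, adjusted p = 0.0239), and Aldh5a1 (0.41 ± 0.11, adjusted p = 0.0291) were among those called higher. By list, the postsynapse and receptor trafficking genes had 2 of 20 called in Akita vs WT and 3 of 20 in Akita + NACET vs Akita, GABA and glutamine metabolism 2 of 6 in each, the cotransporters and their kinases 0 and 1 of 7, and GABA-B auxiliary subunits (3 tested) and glycine cleavage and synthesis (6 tested) 0 in both.

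Promoters were read because many members moved together, and NACET is studied as an inducer of NRF2, a factor that binds antioxidant response elements. RefSeq windows on GRCm38.p6, from 250 bases before to 50 after a gene's start, were matched for 28 members. The core letters TGACNNNGC on either strand occurred in windows of 6 of these 28 (21.4%), against 14.0% of 27025 genes and 12.4% of 32851 windows. The 28 members had 38 windows, which gives them more windows per gene than all genes had. The difference in shares was not tested. Of the 6, Slc6a13 and Gabrq were called in neither main comparison. Of the 12 matched members called in either main comparison, 4 held it: Gad2, Slc6a9 (in each of its windows), Slc6a11 and Gabrb2. The stretches around these matches follow, 5′ to 3′ on the gene's strand, with the match in capitals; they lie on the plus strand at chr2:22622187-22622246, chr4:117849278-117849337, chr4:117855476-117855535, chr6:114130996-114131055 and chr11:42420317-42420376.
Gad2: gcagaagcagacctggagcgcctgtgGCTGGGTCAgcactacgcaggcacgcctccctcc
Slc6a9, upstream window: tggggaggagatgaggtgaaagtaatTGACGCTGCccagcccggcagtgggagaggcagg
Slc6a9, downstream window: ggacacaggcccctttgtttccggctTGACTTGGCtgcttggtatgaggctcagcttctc
Slc6a11: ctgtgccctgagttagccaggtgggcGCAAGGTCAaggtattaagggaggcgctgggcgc
Gabrb2: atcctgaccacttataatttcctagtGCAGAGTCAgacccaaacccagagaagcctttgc
In Gad2, Slc6a11 and Gabrb2 the letters stand on the opposite strand. The REST element letters TTCAGCACC, searched in the same way and not overlapping the first motif in its letters, was in no member's window and in 0.371% of all windows. These matches are letters and not binding sites, and no binding was measured here.

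In mm9, several members lie side by side. Gabrr2 (chr4:33149974-33182840) and Gabrr1 (chr4:33219496-33250563) are neighbours on the plus strand, and had similar values in Akita vs WT, −0.59 ± 0.24 and −0.39 ± 0.27, neither called. Gabra4 (chr5:71960973-72049547, minus strand) and Gabrb1 (chr5:72091171-72529628, plus strand) stand head to head, but the first had −0.20 ± 0.22 and only the second was called. Gabrg3 (chr7:63971835-64642558) and Gabra5 (chr7:64663060-64765379), both on the minus strand, had −0.97 and −0.81. The difference between such neighbours was not tested.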

How the data were processed

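Per the labels and the study's methods, the authors purified retinal RNA, prepared poly(A) libraries with a TruSeq kit and sequenced single reads. They aligned with TopHat2 2.1.0 to mm9 and counted reads over exons with HTSeq 0.11.2, without strand and leaving out reads that aligned to several places, which lowers genes with near-identical copies. The deposited values are raw read counts per gene, 1 file per library. The labels number replicates without naming animals, so p-values measure the spread between these libraries. The 5 summary entries and 1 unnamed entry (0.00544% of gene counts on average) were left out, as were 206 ribosomal RNA genes. No pair of replicates agreed within sampling noise (chi-square per gene 4.70 to 51.7).

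The counts were tested in R 4.3.3 with edgeR 4.0.16, by its quasi-likelihood method (TMM, F test, default filter with a minimum count of 10 and total of 15, robust, all 4 groups in 1 fit) with Benjamini-Hochberg adjustment over 16183 genes. The SE was derived from F. DESeq2 1.42.0 was an alternative, besides 2-group fits, other filters and size factors, the replicate number as a block, a covariate, and each library left out in turn. Depth limits genes with few counts, and the libraries of a group differed by more than sampling error. The script was tested on simulated data. Same-numbered libraries of different groups had correlations of deviations between −0.33 and 0.34. Libraries with different numbers were not compared in this way, so this does not settle whether the number pairs them.

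The members and gene lists were chosen with earlier results of these data known. All members are accounted for; per-library values are given for called members, up to 8 with the smallest p per comparison and the remaining ones where space allowed, and for partner genes the 4 with the smallest p among those called, 1 of which is not reported here. Gene positions are from GENCODE M1 (mm9), promoter sequences from RefSeq (GRCm38.p6). Amino acid sequences were not used here, so a planned description of receptor proteins was not made. Some marker and partner genes are not analysed here.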

Additional observations from a re-analysis of the deposited data

Results flagged for a closer look

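The edgeR test of the interaction called 15 of the 30 tested members, where 10.1% of all tested genes were called positive and 10.2% negative. The log2 values were 0.776 for Gabbr2, 0.798 for Gabra3, 1.33 for Gabra5, 1.14 for Gabrb1, 0.807 for Gabrb2, 1.35 for Gabrg3, 1.06 for Gabrr2, 0.953 for Gabrr3, 0.738 for Gad1, 1.91 for Glra1, 1.26 for Glra3, 0.677 for Slc12a5, 0.697 for Slc32a1, 1.03 for Slc6a11 and 1.47 for Slc6a5. With the share outside exons in the fit, 0 members and 0.105% of all genes tested were called. The WT + NACET libraries, which enter this test, also stood apart in Wdfy1 and Acp1 for a reason that was not tested.

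Among 90 sets of 4 to 6 libraries of 1 group, 3 held a library far from the others, where chance gives about 5%. Gabrb1 was lowest in Akita + NACET replicate 3, at 3.64 CPM. Gabrr3 was highest in Akita + NACET replicate 5, at 13.0 CPM. Slc32a1 was lowest in Akita replicate 4, at 13.2 CPM.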

How the results depend on the processing

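No value changed direction in any of the alternatives run for the called members. The counts of members called in Akita vs WT (11), Akita + NACET vs Akita (9), WT + NACET vs WT (1), Akita + NACET vs WT + NACET (2) and the interaction (15) all became 0 when the share outside exons was a covariate, and the count of 0 in Akita + NACET vs WT stayed 0 in every alternative. With that covariate 0%, 0%, 0.377%, 1.20% and 0.105% of all genes tested were called, in the order of the 5 comparisons with calls. The members' median log2 fold changes with it were −0.44, 0.28, −0.14, 0.09 and 0.46 in the same order, against −0.49, 0.36, −0.29, 0.17 and 0.69 without it. With the replicate number as a block, counts were 2, 2, 0, 2 and 11, beside 3.13%, 1.35%, 1.17%, 8.42% and 16.4% of all genes tested. In a fit of 2 groups alone they were 3, 8, 2 and 2 for the first 4, beside 0.965%, 4.56%, 1.71% and 14.8%. WT + NACET vs WT gave 2 calls with DESeq2 size factors, with DESeq2, without a filter, and with genes kept only at mean counts of 50 or more. These fits called 1.51%, 2.62%, 0.770% and 2.475% of all genes. The cause of these changes was not tested. With 1 library left out in turn, counts ranged from 0 to 11, 0 to 10, 0 to 2, 1 to 3 and 9 to 17 in the same order. Of all genes tested, 0% to 9.20%, 0.00617% to 10.9%, 0.437% to 2.04%, 5.33% to 15.0% and 10.3% to 21.9% were called. Akita + NACET vs WT + NACET kept 1 call without Akita + NACET replicates 2, 4 or 5, or WT + NACET replicates 3, 5 or 6. The number of WT libraries and their counts for low genes limit these comparisons.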
